A study of Mus musculus with 24 samples.

Results

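Actin nucleators are the proteins that start new actin filaments, and this account follows 8 mouse genes that encode them: the formins Fmn1, Fmn2, Diaph1, Diaph2, Diaph3 and Daam1, and the Spire genes Spire1 and Spire2. They were taken by name from the 16572 gene names of the deposited RNA-seq table. Each name has a single row, and all 8 passed the filter used here, a mean of at least 1 RPM (a gene's reads scaled to the total reads of its column, the usual RPM unit) over both columns. The members were chosen by name with the values of these same columns known, Fmn1 for its difference between them, so the differences below describe the members and carry no test.

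The RNA was from oocytes grown in a follicle-free culture to class IV, labelled as 60 to 70 μm in diameter in both groups, although the study's methods give a smaller range for class IV at 20% O2. The ovaries came from mice labelled C57BL/6 Barb, for which the methods name a cross with SV129, at an age of 7 days, and the dissociated cells were grown either in 5% O2 for 9 days (IV 5% O2) or in 20% O2 for 14 days (IV 20% O2), without a drug in either group. Oxygen, culture time and any difference in oocyte size therefore cannot be told apart, and the medium was also changed more often in 5% O2. There are 2 RNA-seq libraries per condition among the 24 samples, but the table has 1 value column for each condition, and how it was made from the libraries is not given in the sources used here. The values below therefore come without SD, test or check by replicates. All intervals are 95% intervals that cover counting error only. They are exact, except that of the Fmn1 minus Fmn2 difference, which is a normal approximation.

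A formin holds the growing end of an actin filament with a paired FH2 domain and adds actin that is brought by profilin, which gives straight, unbranched filaments. Spire proteins line up several actin monomers on a row of WH2 domains and work together with the FMN formins, whose end binds the KIND domain of Spire. In mouse oocytes, Fmn2 with Spire1 and Spire2 builds the cytoplasmic actin mesh that carries the meiotic spindle to the cortex, and oocytes without Fmn2 fail to extrude the polar body. Fmn1 is the related formin of limb and kidney development, and the DIAPH and DAAM formins act in many cell types.

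The columns rest on 132185254 reads for IV 5% O2 and 40875363 reads for IV 20% O2, so a value of IV 5% O2 has 3.23 times the depth behind it. These totals, to which RPM is scaled, were derived from the value of 1 read. The reads on the table's rows were 109629349 and 29754910, a larger share of the total at 5% O2, which raises RPM values there. Of the 12 oocyte markers listed, all were in the table, and their values summed to 9852 RPM at 5% O2 and 13690 RPM at 20% O2. None of the 12 was at least 2-fold higher at 5% O2, where 18.7% of all genes tested were, and 3 were at least 2-fold lower, where 9.22% of all genes were. These counts held under median-ratio scaling, with 12.0% of all genes higher and 13.6% lower, and under quantile normalization, with 12.2% and 12.5%. Gdf9, an oocyte growth factor, had 2346 and 2805 RPM. The 3 markers at least 2-fold lower were the zona pellucida genes Zp2, with 1537 and 3807 RPM, and Zp3, with 690.0 and 1501 RPM, and the receptor gene Kit, with 148 and 448 RPM. By any amount, 4 of the 12 were higher at 5% O2 and 8 lower. Nobox, at 496 and 271 RPM, was the furthest apart of the 4. These tallies were 1 and 11 under median-ratio scaling and 2 and 10 under quantile normalization. The part of this in the differences of the nucleator genes was not tested. Differences are given as log2(RPM + 1) of IV 5% O2 minus that of IV 20% O2, a scale on which changes of low genes come out too small. The median difference of the 14704 genes tested was 0.26, and values relative to this median gene are given as well.

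Fmn1 had 435 RPM at 5% O2 and 14.9 RPM at 20% O2, whereas Fmn2 had 71.4 RPM and 94.8 RPM. The formin that is not the one known for oocytes was thus the one that stood far apart between the columns, and Fmn2 differed less and in the other direction. Spire1, Spire2, Diaph1, Diaph3 and Daam1 were higher at 5% O2, by between 1.32 and 2.52 times in RPM. Diaph2 was near the bottom of the range in both columns and was lower at 5% O2. The 6 members that were higher and the 2 that were lower kept these directions with every scaling and pseudocount tried.

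**Figure D1:**
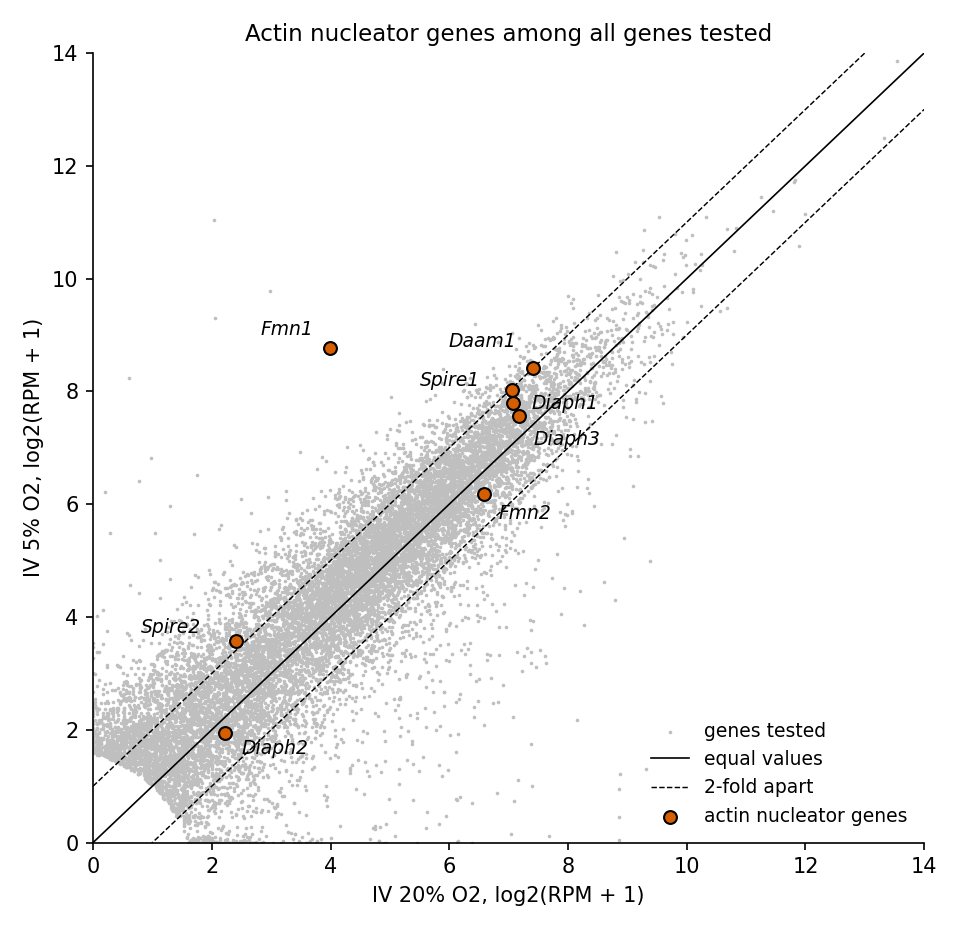
Each grey point is 1 of the 14704 genes tested, with log2(RPM + 1) at 20% O2 on the horizontal axis and at 5% O2 on the vertical axis; orange points are the 8 nucleator genes, the solid line marks equal values and the dashed lines a 2-fold difference. Fmn1 lies far above the upper dashed line, at 435 RPM against 14.9 RPM, while the other members lie in the cloud of genes, Fmn2 below the solid line.

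Fmn1 lies on chromosome 2 of GRCm38 on the plus strand from 113327736 to 113716767 and has 9 annotated transcripts with 15397 bases of exon in all. Its values rest on 57562 reads at 5% O2 and on 608 reads at 20% O2. The ratio of RPM was 29.3 (interval 27.0 to 31.8), and the log2 difference was 4.78 (interval 4.67 to 4.89), which is 4.52 above the median gene. Among the 14704 genes tested, this was the difference at rank 9 from the highest. Per length, Fmn1 was at 28.3 RPM per kilobase of exon at 5% O2, percentile 88.2 of the genes tested, and at 0.966 RPM per kilobase at 20% O2, percentile 21.4. By this length, Fmn1 was thus among the lower transcripts of the 1 column and among the upper transcripts of the other. Its median annotated transcript is much shorter, at 2.384 kb, and percentiles with other lengths were not computed.

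Fmn2 lies on chromosome 1 on the plus strand from 174501825 to 174822729 and has 7960 bases of exon. It was counted with 9440 reads at 5% O2 and with 3876 reads at 20% O2. The RPM of IV 20% O2 was 1.33 times that of IV 5% O2. The log2 difference of Fmn2 was -0.40 (interval -0.46 to -0.35), or -0.66 when set against the median gene. Per length, Fmn2 was at 8.97 RPM per kilobase at 5% O2 and at 11.9 RPM per kilobase at 20% O2 (percentile 75.3).

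Set against each other within a column, the FMN genes changed order. In IV 20% O2, the level of Fmn2 per kilobase of exon was 12.3 times that of Fmn1 (interval 11.3 to 13.5). In IV 5% O2, the level of Fmn1 was 3.15 times that of Fmn2 (interval 3.08 to 3.22). The log2 difference of Fmn1 exceeded that of Fmn2 by 5.19 (interval 5.06 to 5.31), a quantity that a common scaling of a column leaves nearly as it is. Median-ratio scaling gave 5.19 for it, and quantile normalization gave 5.20. The order within each column was the same with the longest or the median transcript as the length and without division by length.

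The 250 bases before the annotated starts of Fmn1 and Fmn2 are shown because these genes differ most in how they moved. They are RefSeq windows of GRCm38.p6, chr2:113327486-113327735 for Fmn1 and chr1:174501575-174501824 for Fmn2, both on the plus strand and written 5′ to 3′, and each ends at the base before the start of the gene's row in the table. Capitals mark matches, on either strand, to the core of the hypoxia response element (ACGTG or GCGTG), to the E-box (CANNTG, the motif of bHLH factors such as FIGLA and SOHLH1) and to the core bound by the oocyte homeobox factor NOBOX (TAATTG or TAATTA). The letters CACGTG would match the core of the hypoxia response element and the E-box at once.
Fmn1: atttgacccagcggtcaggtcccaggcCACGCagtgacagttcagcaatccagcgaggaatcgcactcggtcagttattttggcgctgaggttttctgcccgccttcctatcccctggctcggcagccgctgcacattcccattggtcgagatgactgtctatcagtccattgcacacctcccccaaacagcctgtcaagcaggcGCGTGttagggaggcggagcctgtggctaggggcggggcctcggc
Fmn2: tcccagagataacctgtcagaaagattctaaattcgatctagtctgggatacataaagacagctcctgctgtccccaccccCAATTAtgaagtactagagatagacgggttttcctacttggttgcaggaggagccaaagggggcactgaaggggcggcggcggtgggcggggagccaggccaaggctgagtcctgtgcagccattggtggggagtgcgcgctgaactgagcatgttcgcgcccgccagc

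The Fmn1 window has 2 matches to the hypoxia response core and none to the E-box or the NOBOX core. The Fmn2 window has 1 match to the NOBOX core and none to the other motifs. Of 32841 RefSeq windows of this length, 38.6% hold the hypoxia response core, 66.2% an E-box and 11.3% the NOBOX core, so a match is a description of the letters and not a site. Among the other members, the window of Diaph2, which was lower at 5% O2, also holds 2 hypoxia response cores. The windows of Spire2 and Diaph3, which were higher, hold 0, and those at the separate starts of Daam1, also higher, hold 1 and 2. The windows of Diaph3 and Daam1 do not lie at the start of the gene's row, and Spire1 and Diaph1 have no window here. The part of such motifs in the differences was not tested. The windows of both genes are GC-rich, at 60.8% for Fmn1 and 57.2% for Fmn2, against a median of 52.4% over all windows. RefSeq gives Fmn1 a further start at position 113685090, for the window chr2:113684840-113685089 with 2 E-box matches and neither of the other motifs. The deposited value covers the gene as a whole, so transcripts from the separate starts are not told apart.

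Several annotated genes lie inside Fmn1. The antisense genes Gm13966 and Gm13963 share 449 and 31 bases with its exons, and neither has a row in the table. The libraries were made with a dUTP protocol that marks the strand, but whether the counting used the strand is not given in the sources used here, so reads of these antisense genes cannot be told apart from those of Fmn1. Soft-masked repeats make up between 6.53% and 16.6% of the exonic bases of the 8 members, and Fmn1 lies inside this range. The rows next to Fmn1 on the chromosome, named by position, did not all move with it. Tmco5b, which ends 30.5 kb before Fmn1 on the same strand, had 6.55 RPM (866 reads) at 5% O2 and 0.709 RPM (29 reads) at 20% O2, a log2 difference of 2.14. Ryr3, a calcium channel gene farther on that side, had 15.7 and 14.9 RPM. On the other side, Arhgap11a had 78.8 and 81.4 RPM.

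The RNA comes from oocyte pools that may hold other cells, and Fmn1 is a formin that other tissues use. In a bulk sample, fewer cells of a type and less RNA per cell cannot be told apart. Of 16 theca and stroma markers, 11 were in the table, and their values summed to 46.1 RPM at 5% O2 and to 7.17 RPM at 20% O2. Of the 8 tested, 6 were at least 2-fold higher at 5% O2, where 18.7% of all genes tested were, and 0 at least 2-fold lower. The count of 6 was 5 under median-ratio scaling and under quantile normalization (12.0% and 12.2% of all genes). With a pseudocount of 5 RPM it was 1 (8.17% of all genes), and the median log2 difference of the list went from 1.84 to 0.60. Nr2f2, a stromal transcription factor gene, was the 1 tested marker of the list that was lower at 5% O2, with 0.787 and 1.69 RPM. Cyp11a1, a steroid synthesis gene, had 16.4 RPM at 5% O2 and 0.122 RPM at 20% O2. The stroma genes Vim, Dcn and Col1a2 were without a read at 20% O2, while Col1a1 and Cyp17a1 are not among the table's names. Of 12 granulosa markers, 6 were in the table and summed to 41.3 and 29.8 RPM, with Fshr at 0 at 5% O2 and Inha at 0 at 20% O2. Of 4 endothelial markers, 3 summed to 61.0 and 36.1 RPM, with Kdr at 0 at 20% O2. Of 6 macrophage markers, 3 summed to 17.9 and 21.1 RPM, with Lyz2 at 0 at 20% O2. At least 2-fold higher at 5% O2 were 1 of 4 tested granulosa markers (Inhba, 2.63 and 0.758 RPM) and 1 of 2 tested endothelial markers (Tek, 13.8 and 3.40 RPM). Of 2 tested macrophage markers, 0 were (18.7% of all genes), and 0 in these lists were 2-fold lower (9.22% of all genes). With either other scaling the granulosa count was 0 and the endothelial count stayed at 1 (12.0% and 12.2% of all genes). Of 5 erythroid markers, Alas2 alone was in the table, at 1.32 and 1.57 RPM. The part of such cells in the Fmn1 difference was not tested.

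The Spire genes encode the partners of the FMN formins, and both were higher at 5% O2. Spire1, on chromosome 18 from 67488209 to 67610790 on the minus strand, had 259 RPM (34268 reads) at 5% O2 and 132 RPM (5388 reads) at 20% O2. For Spire1 the log2 difference was 0.97 (interval 0.93 to 1.01), 0.71 above the median gene. Spire2, on chromosome 8 from 123332713 to 123369515 on the plus strand, was far less abundant, with 10.9 RPM (1445 reads) and 4.33 RPM (177 reads). The log2 difference of Spire2 was 1.16 (interval 0.97 to 1.35), which is 0.90 above the median gene. Per kilobase of exon, Spire1 was at 33.4 RPM at 5% O2 and 17.0 RPM at 20% O2, against 4.36 and 1.73 RPM for Spire2. The predicted gene Gm20388 spans Spire2 on the same strand without sharing exonic bases, and it had 18.4 RPM at 5% O2 and 9.59 RPM at 20% O2.

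Diaph1 and Diaph3 encode Diaphanous formins, which are held inactive by their own ends until released, and both were expressed at levels close to Spire1. Diaph1, on chromosome 18 from 37843601 to 37935476 on the minus strand, had 221 RPM (29225 reads) at 5% O2 and 133 RPM (5441 reads) at 20% O2. Its log2 difference was 0.73 (interval 0.69 to 0.77). Diaph3, on chromosome 14 from 86655367 to 87141235 on the minus strand, had 188 RPM (24882 reads) and 143 RPM (5840 reads). The log2 difference of Diaph3 was 0.40 (interval 0.35 to 0.44), the smallest of the 6 members that were higher at 5% O2. Relative to the median gene it was 0.14, against 0.47 for Diaph1, and with median-ratio scaling it was 0.08.

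Diaph2, an X-linked gene whose disruption in women is known from cases of ovarian insufficiency, was the least abundant member in both columns. It lies from 129749742 to 130465834 on the plus strand and had 2.85 RPM (377 reads) at 5% O2 and 3.67 RPM (150 reads) at 20% O2. Its log2 difference of -0.28 had an interval from -0.49 to -0.06, which is near 0 at its upper end. Per kilobase of its 11553 exonic bases, Diaph2 was at 0.247 and 0.318 RPM, percentile 3.95 of the genes tested in the former and 8.60 in the latter.

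Daam1 encodes a formin of the noncanonical Wnt pathway that binds Dishevelled. It lies on chromosome 12 from 71831078 to 71992333 on the plus strand. Daam1 had 339 RPM (44840 reads) at 5% O2 and 168 RPM (6879 reads) at 20% O2, a log2 difference of 1.01 (interval 0.97 to 1.04), which is 0.75 above the median gene. With 41.9 RPM per kilobase of exon it was the most abundant member by that measure at 5% O2. With 20.8 RPM per kilobase it was in place 3 at 20% O2.

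**Figure D2:**
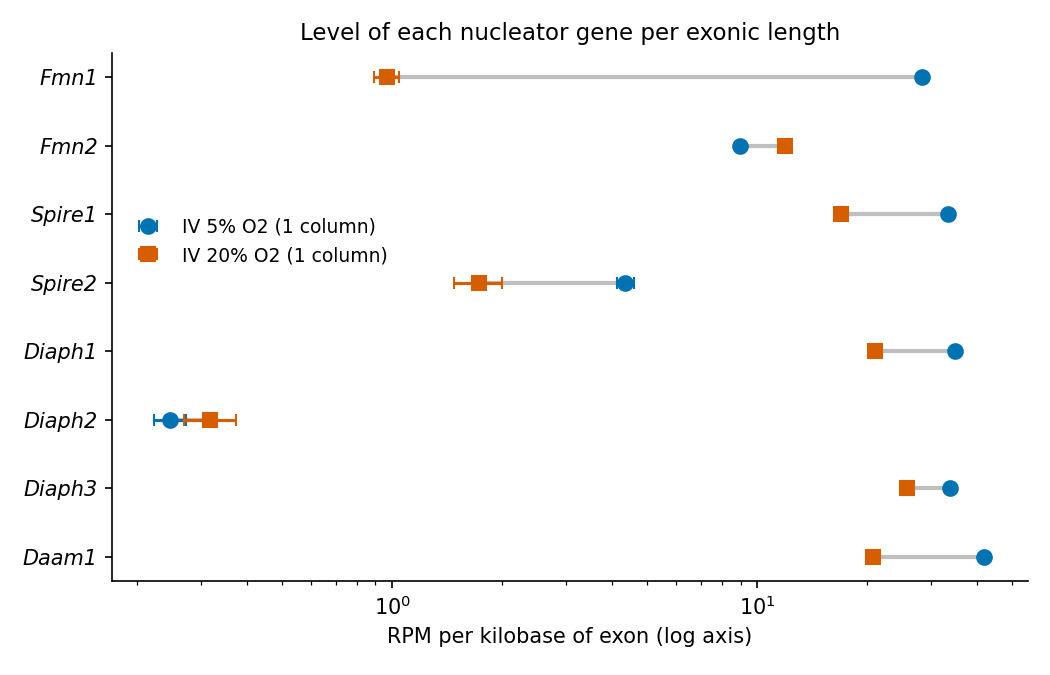
RPM per kilobase of exon (log axis) of the 8 genes, with circles for the IV 5% O2 column, squares for the IV 20% O2 column, bars for exact 95% counting intervals and a grey line joining the values of a gene. The distance is widest for Fmn1, from 0.966 to 28.3, and Fmn2 and Diaph2 are the genes whose circle lies left of the square.

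Ordered by level per kilobase, the members at 5% O2 ran from Daam1 through Diaph1, Diaph3, Spire1, Fmn1, Fmn2 and Spire2 to Diaph2. Diaph3 and Spire1, at 33.8 and 33.4 RPM per kilobase, were the only neighbours in this order whose counting intervals overlapped. In IV 20% O2 the order was Diaph3, Diaph1, Daam1, Spire1, Fmn2, Spire2, Fmn1 and Diaph2, and there Diaph1 and Daam1, at 21.0 and 20.8 RPM per kilobase, were the only neighbours with overlapping intervals. With the union of exons as length, Diaph1 kept place 2, Spire1 place 4 and Diaph2 place 8 in both columns. Fmn1 went from place 7 at 20% O2 to place 5 at 5% O2. These places, and the shares below, depend on the length chosen and were not computed with other lengths. The median annotated transcript is 2.384 kb for Fmn1 and 5.79 kb for Daam1, against 15.397 and 8.096 kb of exon.

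Summed per kilobase of exon, the 8 members came to 186 RPM at 5% O2 and to 99.3 RPM at 20% O2. Without Fmn1 the sums were 158 and 98.4 RPM, so most of the sum was carried by other members in both columns. Fmn1 made up 15.2% of the sum at 5% O2 and 0.973% at 20% O2. The share of Fmn2 was 4.83% and 12.0%, and that of Diaph3 18.2% and 25.8%. Spire1 took nearly equal shares, 18.0% and 17.1%, as did Daam1 with 22.5% and 20.9%.

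**Figure D3:**
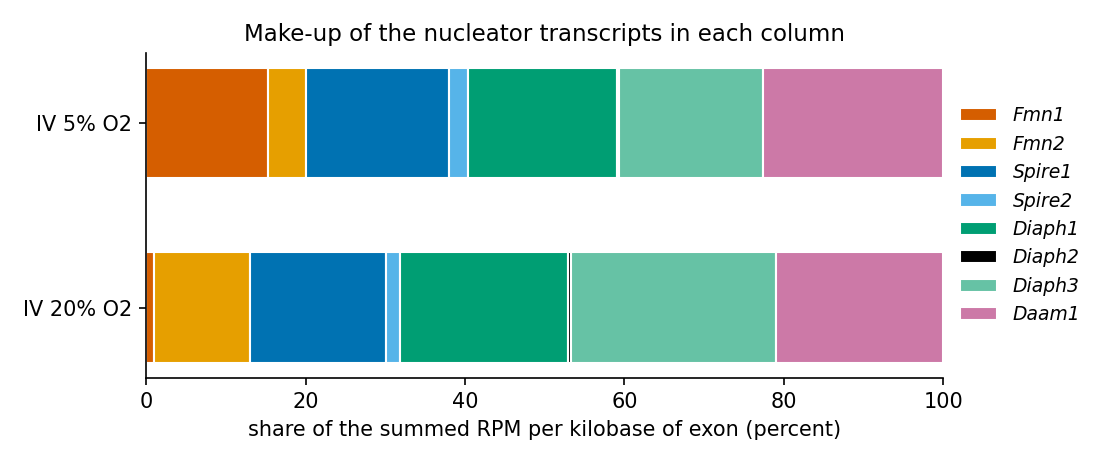
Each bar splits the summed RPM per kilobase of exon of the 8 genes in a column into the percent taken by every gene. Fmn1 takes 15.2% of the IV 5% O2 bar and 0.973% of the IV 20% O2 bar, while Fmn2 takes 4.83% and 12.0%.

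A difference of at least 2-fold was used as the call, since single columns allow no test. Of the 8 members, 3 (Fmn1, Spire2 and Daam1) were at least 2-fold higher at 5% O2, where 18.7% of all genes tested were, and 0 were at least 2-fold lower, where 9.22% of all genes were. Daam1 at 1.01 was just inside this threshold and Spire1 at 0.97 just outside it. The median log2 difference of the members was 0.85, against 0.26 for all genes. Median-ratio scaling gave a median of 0.53 for the members and -0.03 for all genes, and quantile normalization gave 0.61 and 0.06. Both left Fmn1 as the only member past 2-fold, with 12.0% of all genes higher and 13.6% lower under median-ratio scaling and with 12.2% and 12.5% under quantile normalization. The count was also 1 with a 5 RPM pseudocount, where 8.17% of all genes were higher, and with division by exonic length, where 11.3% were.

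Mammals have further formins beside the 6 above. Of 9 listed, the 7 in the table were all tested, and 1 was at least 2-fold higher and 1 at least 2-fold lower at 5% O2, with a median log2 difference of 0.56. A count of 1 in 7 each way is near the 18.7% and 9.22% of all genes. Fmnl3, a formin that shapes filopodia and cell edges, had 407 RPM at 5% O2 and 196 RPM at 20% O2. Fhod3, known from the sarcomeres of heart muscle, had 426 and 225 RPM. Per kilobase of exon, these are the most abundant formins of the table, above all 8 members. Their levels were 81.1 and 58.8 RPM per kilobase at 5% O2 and 39.1 and 31.0 RPM per kilobase at 20% O2. Fmnl2, the close relative of Fmnl3, had 41.9 and 54.4 RPM and, like Fmn2, was lower at 5% O2, with a log2 difference of -0.37. With either other scaling, Fmnl3 was no longer past 2-fold. Inf2, a formin that also severs filaments, had 5.45 and 5.46 RPM. Fhod1 had 3.40 and 1.98 RPM, Grid2ip had 1.88 and 0.587 RPM, and Daam2, the paralog of Daam1, had 0.378 RPM (50 reads) and 1.76 RPM (72 reads). Fmnl1 and Fhdc1 are not among the table's names.

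**Figure D4:**
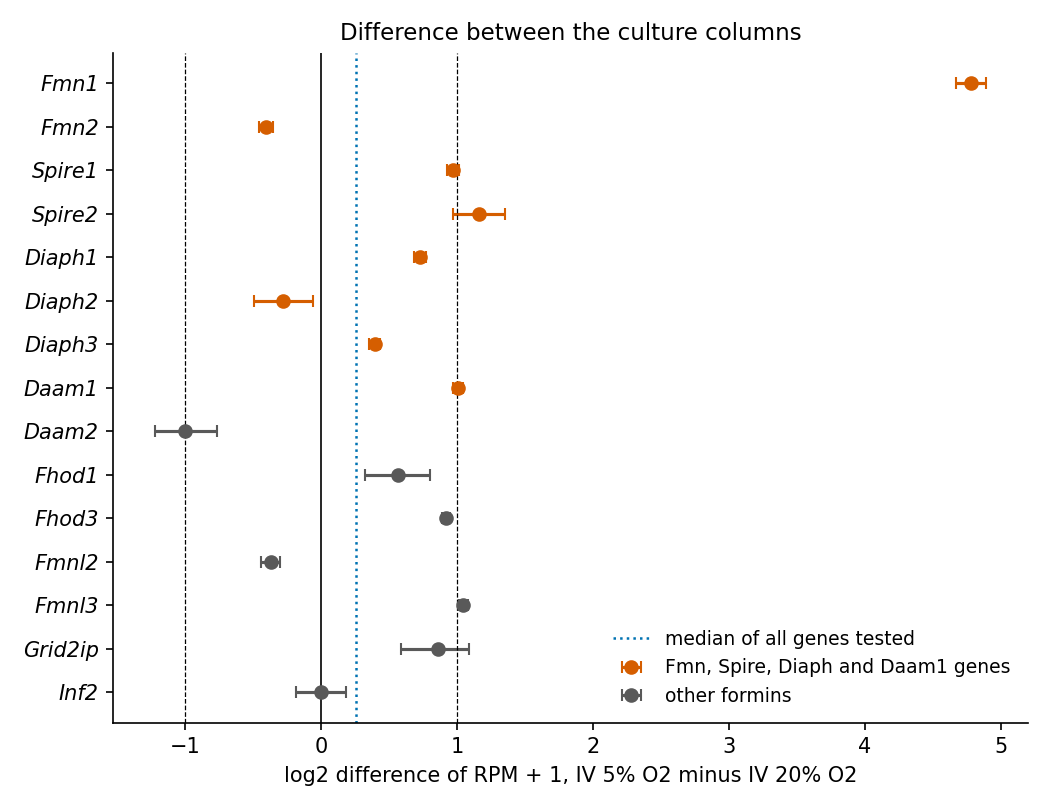
Points are log2 differences of RPM + 1 (IV 5% O2 minus IV 20% O2) of the 8 members in orange and of the 7 other formins in grey, with exact 95% counting intervals; the dotted line is the median of all genes tested and the dashed lines mark 2-fold. Fmn1 at 4.78 stands alone on the right, and Spire2 at 1.16 is the next highest.

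The Arp2/3 complex nucleates branched filaments and is the other main source of new actin filaments. All 10 of its listed subunits were tested, of which 1 was at least 2-fold higher at 5% O2 (18.7% of all genes) and 1 at least 2-fold lower (9.22% of all genes), and the median log2 difference of 0.33 was close to that of all genes. Arpc3 had 175 RPM at 5% O2 and 93.3 RPM at 20% O2, and Arpc5l had 218 and 154 RPM. Arpc1b, at 129 and 63.0 RPM, was past 2-fold, as was Actr3b in the other direction at 1.23 and 3.74 RPM. Arpc1b was not past 2-fold with either other scaling. Of the 18 listed activators of Arp2/3 and tandem WH2 nucleators, 12 were tested, with 2 higher, 2 lower (18.7% and 9.22% of all genes) and a median of -0.53. Whamm and Washc1, which act on internal membranes, were higher at 5% O2, with 94.6 against 42.4 RPM for Whamm and 30.9 against 13.8 RPM for Washc1. Wasf1, a WAVE gene, was lower with 2.57 against 17.0 RPM, as was Wipf2, a partner of the WASP proteins, with 12.0 against 31.6 RPM. Wasl, which encodes N-WASP, had 83.1 and 154 RPM. With either other scaling, 0 of these 12 genes were 2-fold higher and 4 were 2-fold lower, where the shares of all genes were 12.0% and 13.6% (median-ratio) and 12.2% and 12.5% (quantile).

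Actin monomers and profilin are what formins build filaments from. Of 10 actin and profilin genes, 7 were in the table and 6 were tested, with 1 at least 2-fold higher and 1 at least 2-fold lower (18.7% and 9.22% of all genes) and a median log2 difference of -0.53. Actb, the main cytoplasmic actin gene, had 122 RPM at 5% O2 and 180 RPM at 20% O2. Actg1, the other cytoplasmic actin gene, had 13.2 RPM (1743 reads) against 113 RPM (4620 reads), a log2 difference of -3.01. Actin genes and their copies resemble each other closely, so reads could be shared between them and these values are uncertain. Acta1, the skeletal muscle actin, had 4.05 RPM (536 reads) at 5% O2 and no reads at 20% O2, at least 55.2-fold higher when set against the limit of 3 reads that a count of 0 allows. Pfn1, the profilin that feeds actin to formins, had 58.7 and 87.4 RPM.

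Vesicles that carry Rab11a and the motor Myo5b move along the mesh and take part in spindle positioning. Myo5b was among the more abundant genes, with 664 RPM at 5% O2 and 649 RPM at 20% O2, a difference of 0.03. Its sign depended on the scaling, since median-ratio scaling gave -0.29 and quantile normalization gave -0.09. Rab11a had 172 and 105 RPM. Of the 12 genes of this list that were tested, 2 were at least 2-fold higher at 5% O2 and 0 lower, against 18.7% and 9.22% of all genes. The higher ones were the Rab11 effectors Rab11fip1, with 87.3 against 37.0 RPM, and Rab11fip5, with 65.2 against 29.8 RPM. The counts were 0 higher and 1 lower under median-ratio scaling, and 1 higher and 1 lower under quantile normalization, where the shares of all genes were 12.0% and 13.6%, and 12.2% and 12.5%.

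Capping, severing and bundling proteins set how long the filaments last. Of 19 such genes, 18 were tested, with 1 at least 2-fold higher at 5% O2 (18.7% of all genes), 3 lower (9.22% of all genes) and a median log2 difference of 0.14, which was -0.17 under median-ratio scaling and -0.04 under quantile normalization. Twf2, a twinfilin, had 75.4 and 25.1 RPM. Gsn, the severing protein gelsolin, had 4.15 and 14.7 RPM, Capza1, a capping protein subunit, had 30.8 and 77.1 RPM, and Tmod2, a tropomodulin, had 9.70 and 25.0 RPM. The most abundant of the list per length were Cfl1, which encodes cofilin, with 157 and 188 RPM, and Vil1, which encodes villin, with 224 and 124 RPM.

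**Figure D5:**
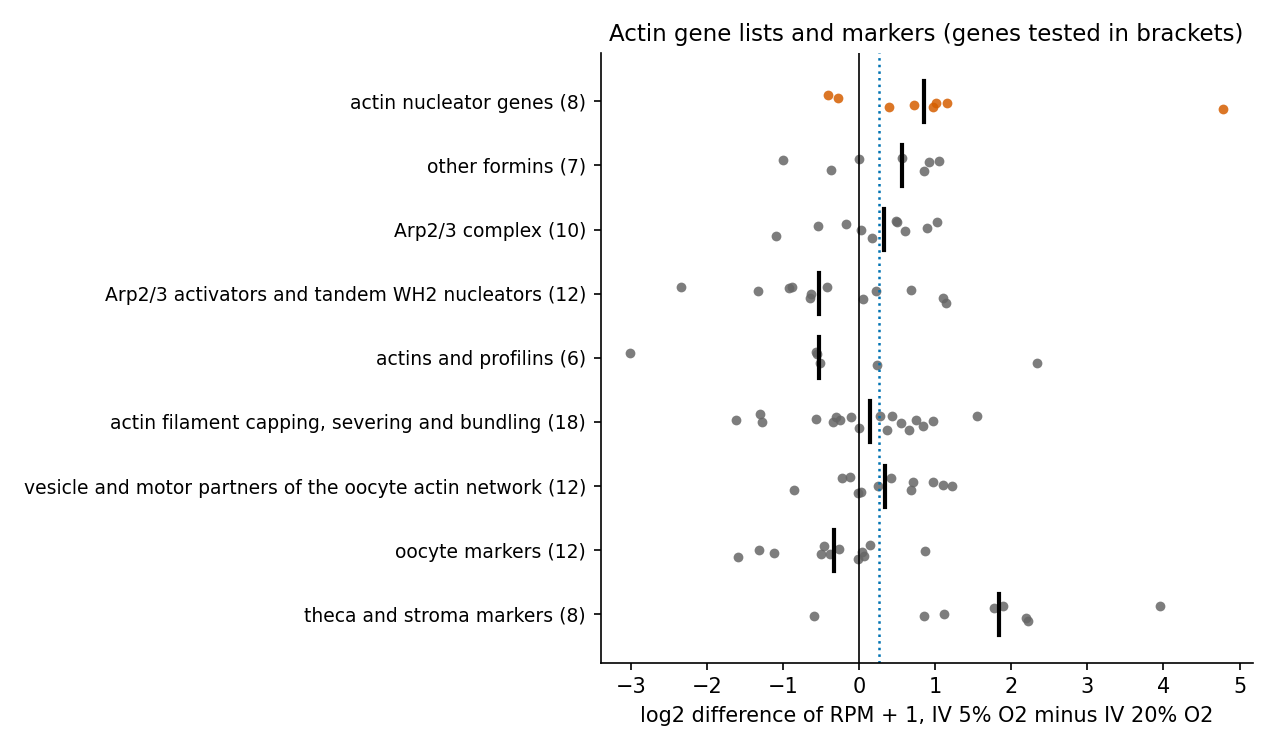
Each point is the log2 difference of RPM + 1 (IV 5% O2 minus IV 20% O2) of 1 tested gene, the black bars are the medians of the lists, the solid line is 0 and the dotted line is the median of all genes tested. The nucleator genes have a median of 0.85 with Fmn1 at 4.78 to the far right, the actins and profilins have a median of -0.53, and the theca and stroma markers have a median of 1.84.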

How the data were processed

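RNA-seq libraries of class IV oocytes were aligned by the authors to mm10 with TopHat (TopHat2 2.0.9 per the labels), and reads over an oocyte annotation were merged across exons and log2-transformed in SeqMonk. The authors deposited 1 log2 value per gene and condition, and how the 2 libraries were combined is not given in the sources used here. The linear values were whole multiples of 1 read for 100% of the rows in both columns (within 0.02 reads or, for large counts, within the precision of the file), so they were read as RPM. The study's methods describe a correction for feature length, and the table is named for RPKM, but 1 read has the same value for every gene of a column, so the deposited values hold no such correction. The authors' entry for no reads, 0.9 of the value of 1 read, was taken as 0. The table has 1 further value column, headed as class IV oocytes in vivo, that matches no sample of the labels and was not used, so no in vivo level is given for any gene. The other 20 libraries (RRBS and PBAT) were not used here.

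Exonic length was the union of exons in GENCODE vM21 (GRCm38), whose gene coordinates are those of 16414 of 16591 rows. Genes were tested if their RPM averaged 1 or more over both columns, and differences were taken after adding 1 RPM. The interval of a difference follows from a Clopper-Pearson interval for the share of a gene's reads that fell in one column, those for a level are Poisson intervals, and that of the Fmn1 to Fmn2 contrast comes from the counting variance of the 4 values. They cover counting error only, because reads without molecular identifiers are not independent molecules, and they compare these columns rather than the conditions. The interval code was tested on simulated reads.

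The members and all lists were chosen with earlier results of these data known. Named were the 8 members, every other formin, and of each list of actin genes the 2 highest per length and up to 4 at least 2-fold apart. Tmco5b, Ryr3, Arhgap11a and Gm20388 were named by position. Marker genes were named where they had no reads in a column, and Gdf9, Zp2, Zp3, Kit, Nobox, Cyp11a1, Nr2f2, Inhba and Tek were picked after their values were seen. The values of 1 further gene list are not reported here. Promoter windows were RefSeq sequences of GRCm38.p6. Alternatives were 2 other pseudocounts (0.1 and 5 RPM), scaling by median ratios, quantile normalization, a filter at 5 RPM or none, values per kilobase, other transcript lengths and, added after the data were seen, no pseudocount. Computations used scipy 1.17.1, pandas 2.3.3, numpy 2.4.6 and pysam 0.24.0 under Python 3.11.15, and plots used matplotlib 3.10.9.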

Additional observations from a re-analysis of the deposited data

How the results depend on the processing

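No paired analysis was possible because each condition has a single value column with no replicate number, and for this reason no replicate block was fitted and no replicate was left out. The number of members at least 2-fold higher in IV 5% O2, 3 as reported, was 1 with a pseudocount of 5 RPM, with values per kilobase of exon and with either median-ratio scaling or quantile normalization, and 0 were 2-fold lower under each alternative run. The log2 difference of Fmn1, 4.78, was 4.47 with a pseudocount of 5, 4.60 with quantile normalization, 4.47 with median-ratio scaling and 3.90 with RPM per kilobase, where the pseudocount weighs more on low values. That of Fmn2, -0.40, was -0.60 and -0.72 with these scalings. The Fmn1 minus Fmn2 difference, 5.19, was 4.86 with a pseudocount of 5 and 4.27 with RPM per kilobase. The log2 ratio of Fmn2 to Fmn1 per length, -1.66 in IV 5% O2 and 3.62 in IV 20% O2, was -0.76 and 4.52 with the median transcript as length and -2.61 and 2.67 without division by length; in IV 5% O2 it was -1.73 with the longest transcript. Of 36 values of the 6 other members, 12 moved by more than their counting interval and 0 changed sign. Without a pseudocount, which was tried after the data were seen, Fmn1 was at 4.87 and Fmn2 at -0.41. Over all genes, 2753 were at least 2-fold higher and 1356 lower as reported, against 3326 and 1625 with a pseudocount of 0.1, 3326 and 1602 without one, 3342 and 1533 without a filter, 1202 and 706 with a pseudocount of 5, 1659 and 930 per kilobase, 1691 and 917 with a mean of at least 5 RPM, 1758 and 2003 with median-ratio scaling and 1799 and 1831 with quantile normalization; with the filter at 5 RPM, Diaph2 was not tested. The lower depth of IV 20% O2 limits Fmn1, Spire2 and Diaph2 most, which rest there on 608, 177 and 150 reads.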

Other observations

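The genes nearest to Fmn1 and Fmn2 in the plane of both columns were looked up as the distance on log2(RPM + 1) over 2 columns. The search covered the genes tested, without those whose name is only an identifier, such as Gm or Rik names. Among the genes searched, Fmn1 had no close neighbour. The nearest was Tpi1, which encodes the glycolytic enzyme triosephosphate isomerase, at a distance of 1.34, with 239 RPM at 5% O2 and 31.4 RPM at 20% O2. Next came Ybx2, an RNA-binding protein of germ cells, at 1.64, with 195 and 34.6 RPM, and Cltb, a clathrin light chain gene, at 1.68, with 155 and 26.2 RPM. The log2 differences of these genes, 2.89, 2.46 and 2.52, were well below the 4.78 of Fmn1. Fmn2 lies in the dense part of the plane, where Txndc11 (71.5 and 95.8 RPM), Hacd3 (71.8 and 93.4 RPM) and Crkl (71.4 and 92.1 RPM) were within 0.0144, 0.0230 and 0.0415 of it.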
